A study of Mus musculus with 9 samples.

Results

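Claudins, the other transmembrane and scaffold genes of tight junctions, E-cadherin and the connexins of gap junctions were examined in whole-lung RNA. Members were the array probes whose deposited symbol began with Cldn, Tjp, Jam, Gja, Gjb or Gjc and a digit, or was Ocln, F11r or Cdh1. The probe with the highest mean intensity stood for each symbol. This gave 45 of the 25893 genes on the array, from 50 probes. Of these, 30 were tight junction genes with E-cadherin, among them 23 claudins, and 15 were connexins. No probe carried the symbol F11r or Gja5, and these genes were not analysed here. Cldn10 was listed under the symbol Cldn10a, a RefSeq synonym, and which of its variants the probe measures was not examined.

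The study compared lungs of BALB/c mice after challenge with ovalbumin (OVA, an egg protein used to set off allergic airway inflammation in mice) with lungs of mice given phosphate-buffered saline (PBS), all at about 12 weeks of age. Per the labels, the OVA-challenged mice had lung inflammation, airway hyperresponsiveness and raised serum IgE. There were 4 arrays labelled PBS and 5 labelled OVA, each of 2 colours. By the labels, channel 1 (Cy3) held a pool of the PBS-treated lungs on every array, and channel 2 (Cy5) held the RNA of 1 lung sample. The labels give no dye swap and no genotype other than BALB/c, and whether the lungs of a group are from separate mice is not stated. The p-values therefore cover only the scatter among these samples, which may be technical.

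Tight junctions close the space between neighbouring epithelial or endothelial cells. Claudins form their strands, some sealing the gap and others making pores for ions. Occludin and the junctional adhesion molecules sit beside them, and the zonula occludens proteins tie them to actin inside the cell. E-cadherin holds epithelial cells together at the adherens junction just below. Gap junctions serve another purpose, since their connexins form channels through which ions and small molecules pass from cell to cell. In the lung, the epithelial barrier separates inhaled allergen from the tissue beneath.

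All directions here are those of the deposited ratio, channel 2 over channel 1, on arrays labelled OVA relative to arrays labelled PBS. Taken singly, the channels contradict the labels. The goblet cell product Clca1, under its older symbol Clca3, averaged 33.6 ± 1.20 (SD, n = 4) in channel 1 of the PBS arrays and 33.3 ± 3.84 in their channel 2. On the OVA arrays it averaged 0.362 ± 0.0642 (SD, n = 5) in channel 1 and 36.4 ± 2.03 in channel 2. The channel that differs between the groups is the one that the labels call the common PBS pool, and the direction of every change below is not settled. Differences between OVA and PBS arrays in members and gene lists are therefore also given with the OVA ratios turned in sign, where a change called lower becomes higher and the reverse. Across all genes, pairs of OVA arrays had correlations of their log2 ratios from 0.742 to 0.871. For pairs of PBS arrays r lay between -0.289 and 0.142, and for a PBS with an OVA array between -0.162 and 0.11. These are correlations across genes, which are not independent replicates.

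One OVA array stood apart in markers of squamous epithelium. The median log2 ratio of 17 such genes was -1.98 on OVA replicate 2 and 0 on each of the other 8 arrays. Their summed channel 1 intensity ranged from 2.57 to 99.7 over the OVA arrays and from 2.81 to 3.62 over the PBS arrays. Without OVA replicate 2 the counts of members called were the same, with 3 tight junction genes higher and 9 lower, and 3 connexins higher and 2 lower.

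In the comparison of OVA with PBS arrays, the scaffold Tjp3 was higher and the scaffold Tjp1, occludin, Cldn8 and the adhesion molecules Jam2 and Jam3 were lower. Among the connexins, Gjb5 was higher and Gja6 and Gjc1 were lower. By limma (moderated test on log2 ratios, Benjamini-Hochberg over 25852 genes), 17 of the 44 members tested passed an adjusted p of 0.05. This is 38.6%, against 40.2% of all genes tested, so the share of junction genes called lies near the background. Of the 17, 6 were higher and 11 lower, where 17.3% of all genes tested were higher and 23% lower. With the OVA ratios turned, 13 members were higher and 6 lower, where 22.5% of all genes were higher and 16.5% lower. The median log2 difference was -0.031 over the members and -0.017 over all genes, and 0.020 and 0.023 when turned.

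Tight junction genes with E-cadherin and gap junction genes were then set side by side. Of 29 tight junction genes tested, 3 were higher and 9 lower (41.4%), with a median log2 difference of 0.0042 and a median size of 0.15. Of 15 connexins, 3 were higher and 2 lower (33.3%), with a median log2 difference of -0.038 and a median size of 0.26. The median size over all genes was 0.16. A difference between the families was not tested. Brightness moves with these shares: among genes brighter than the median gene, 8 of 14 tight junction genes (57.1%), 3 of 5 connexins (60%) and 61% of all genes were called. With the OVA ratios turned in sign, 9 tight junction genes were higher and 3 lower, and 4 connexins were higher and 3 lower, against 39% of all genes called.

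**Figure D1:**
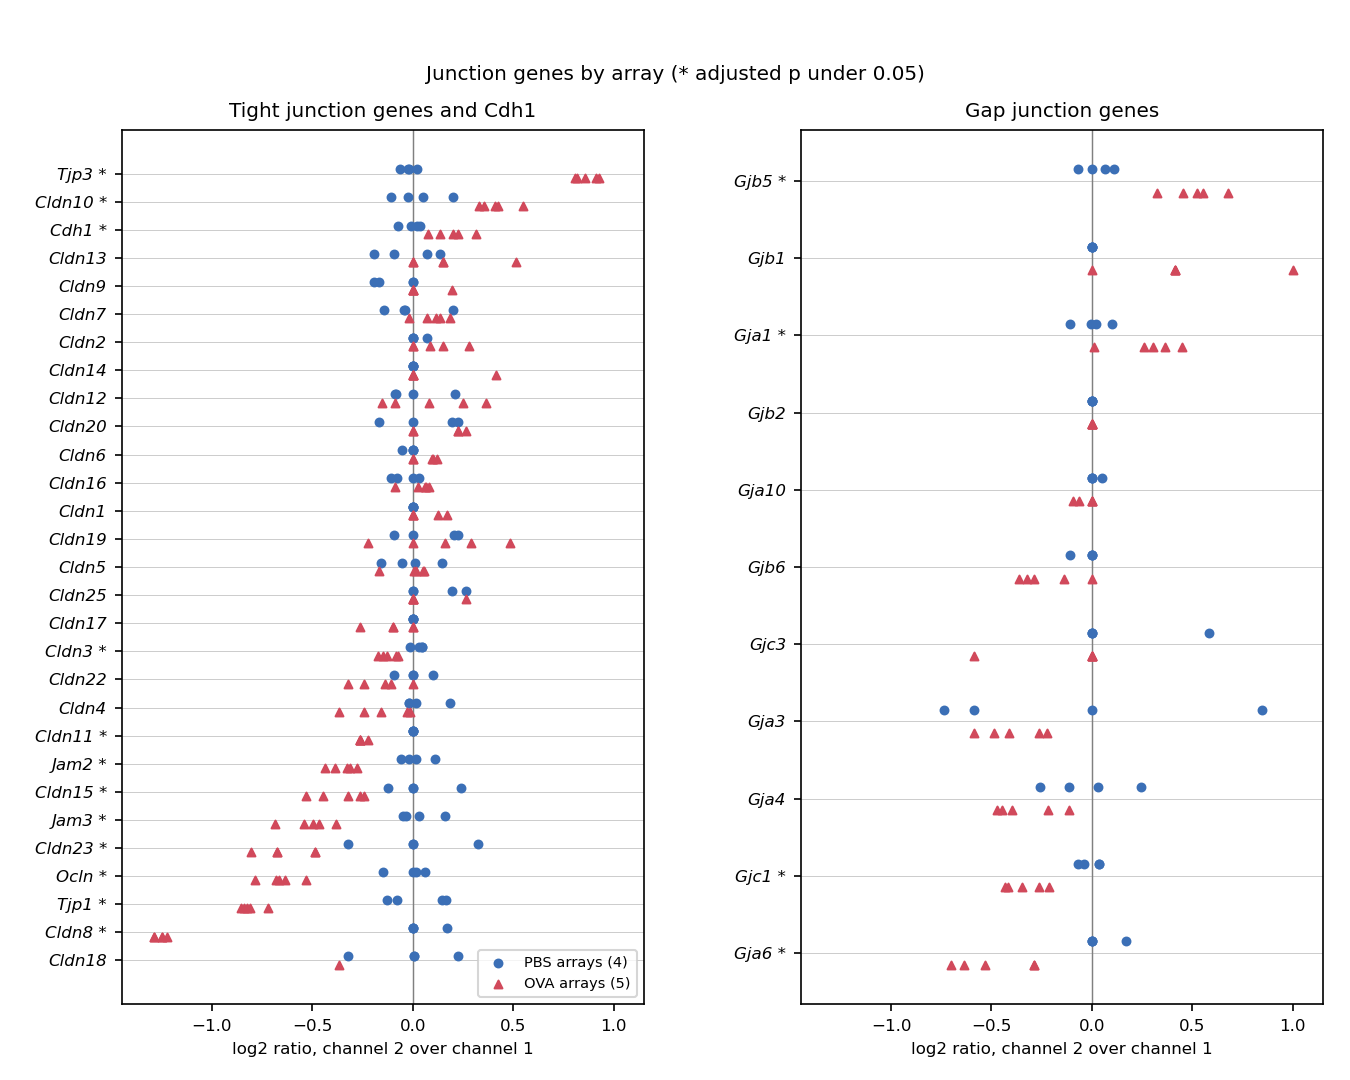
Log2 ratio of channel 2 over channel 1 for 40 junction genes on the 4 PBS arrays (blue circles) and 5 OVA arrays (red triangles), tight junction genes and Cdh1 at left and connexins at right, ordered by the difference between groups. Cldn18, last at left, had a ratio on only 1 OVA array. For 15 of those drawn no OVA array fell among the PBS arrays and the adjusted p was under 0.05. Tjp3 stands at the upper end and Cldn8 at the lower end.

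For 16 of the 44 members tested (36.4%) the groups of arrays did not overlap, against 34.5% of all genes. All 16 passed the test, and the called member whose groups overlapped was Gja1. Windows upstream of Tjp1, Ocln and Tjp3 are shown because these had the largest changes among members brighter than the median gene, a choice made after their values were seen. Each window holds the 250 bases before the outermost annotated start, from RefSeq on GRCm38.p6, 5′ to 3′ on the gene's minus strand. They lie at chr7:65371245-65371494 (Tjp1), chr13:100552719-100552968 (Ocln) and chr10:81291582-81291831 (Tjp3). Capitals mark the GC box GGGCGG or its reverse complement CCGCCC in Tjp1 and Ocln, and the E-box CACCTG or its reverse complement CAGGTG in Tjp3.
Tjp1 promoter: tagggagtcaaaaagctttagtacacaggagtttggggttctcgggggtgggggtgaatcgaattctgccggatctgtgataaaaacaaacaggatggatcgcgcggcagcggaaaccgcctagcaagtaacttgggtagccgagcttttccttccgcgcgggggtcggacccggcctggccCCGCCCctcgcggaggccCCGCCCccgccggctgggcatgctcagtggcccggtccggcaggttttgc
Ocln promoter: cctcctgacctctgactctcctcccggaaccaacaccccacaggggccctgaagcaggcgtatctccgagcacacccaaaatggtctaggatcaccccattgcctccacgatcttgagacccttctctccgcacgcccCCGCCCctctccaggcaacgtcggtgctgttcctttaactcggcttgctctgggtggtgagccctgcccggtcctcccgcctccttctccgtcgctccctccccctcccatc
Tjp3 promoter: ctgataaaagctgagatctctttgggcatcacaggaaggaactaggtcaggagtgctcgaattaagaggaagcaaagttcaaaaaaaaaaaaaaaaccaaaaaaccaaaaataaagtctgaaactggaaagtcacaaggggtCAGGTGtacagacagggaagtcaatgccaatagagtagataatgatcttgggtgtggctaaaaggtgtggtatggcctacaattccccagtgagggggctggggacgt

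The windows of the lower genes Tjp1 and Ocln were 63.2% and 64% G or C and held 2 GC boxes and 1 GC box. That of Tjp3 was 43.2% G or C and held no GC box and 1 E-box. Over 32851 promoter windows of the same length, 32.74% held a GC box on either strand and 17.22% held this E-box. Neither TTC and GAA spaced by 4 bases (the STAT6 spacing, in 5.85% of windows) nor AACCGGTT (a Grainyhead-like motif, in 0.12%) was found in these 3 windows. The motifs share no letters in the windows shown, and a match is a description of letters only. RefSeq promoter windows were matched for 31 of the 45 members.

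Tjp1 encodes the best known zonula occludens scaffold, which binds claudins, occludin and actin. Its log2 ratio was -0.078, -0.13, 0.16 and 0.14 on PBS replicates 1 to 4. On OVA replicates 1 to 5 it was -0.72, -0.85, -0.81, -0.83 and -0.84. The 5 OVA arrays lie within a narrow band far below all 4 PBS arrays. The log2 difference was -0.84 ± 0.07 (SE, n = 5 against 4, limma adjusted p = 2.64e-05), and 0.79 with the OVA ratios turned.

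Tjp3, the scaffold of this family described mainly in epithelia, moved the other way. Its log2 ratio was -0.065, 0.021, -0.020 and -0.024 on the PBS arrays and 0.92, 0.86, 0.82, 0.91 and 0.81 on the OVA arrays. The groups are far apart, and no OVA array was near a PBS array. The log2 difference was 0.89 ± 0.03 (SE, limma adjusted p = 4.05e-07), and -0.84 with the OVA ratios turned.

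The authors' deposited p-values per array followed the same split. For Tjp1, Tjp3, Ocln, Cldn8, Cldn23 and Jam3 the deposited p was under 0.05 on 5 of 5 OVA arrays and on 0 of 4 PBS arrays.

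Ocln encodes occludin, a transmembrane protein of the tight junction strand. Its log2 ratio was 0.015, 0, -0.15 and 0.059 on the PBS arrays and -0.79, -0.64, -0.53, -0.68 and -0.67 on the OVA arrays. Every OVA array lay below every PBS array. The log2 difference was -0.64 ± 0.06 (SE, limma adjusted p = 4.80e-05), and 0.68 with the OVA ratios turned. In a fit of every probe, a second, dimmer Ocln probe gave -0.52 ± 0.09 (SE, limma adjusted p = 0.0023).

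The junctional adhesion molecules are immunoglobulin-like proteins at contacts of epithelial and endothelial cells, and both that were measured were lower. Jam3 had log2 ratios of -0.049, 0.032, 0.16 and -0.034 on the PBS arrays and -0.47, -0.38, -0.68, -0.54 and -0.50 on the OVA arrays. For Jam2 they were -0.019, 0.11, 0.018 and -0.059 on the PBS arrays and -0.28, -0.33, -0.44, -0.31 and -0.39 on the OVA arrays. Neither gene's groups overlapped. The log2 differences were -0.54 ± 0.07 (SE, limma adjusted p = 2.74e-04) for Jam3 and -0.36 ± 0.05 (SE, 2.97e-04) for Jam2, and 0.49 and 0.34 with the OVA ratios turned. With quantile normalised ratios Jam2 was at -0.23 and did not pass (limma adjusted p = 0.10).

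Endothelial markers had the same direction as the adhesion molecules. Of 20 listed endothelial genes 20 were lower, where 23% of all genes tested were, with a median log2 difference of -0.59. With the OVA ratios turned, 19 of the 20 were higher, where 22.5% of all genes were, with a median of 0.58. The list's median ranged from -0.067 to 0.074 on the PBS arrays and from -0.66 to -0.55 on the OVA arrays. Its summed intensity in channel 1 ranged from 143 to 156 on the PBS arrays and from 217 to 240 on the OVA arrays, and in channel 2 from 138 to 157 and from 141 to 153. None of these markers was listed at 0. Their part in the junction results was not tested. In bulk lung RNA, fewer cells of a type and less RNA per cell cannot be told apart.

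E-cadherin (Cdh1), the cadherin of epithelial adherens junctions, was slightly higher. Its log2 ratio was 0.022, -0.0082, -0.074 and 0.035 on the PBS arrays and 0.20, 0.074, 0.32, 0.23 and 0.14 on the OVA arrays. The groups did not overlap, but OVA replicate 2 lay close to the PBS arrays. The log2 difference was 0.20 ± 0.05 (SE, limma adjusted p = 0.013), and -0.18 with the OVA ratios turned. It was at 0.12 and did not pass with quantile normalised ratios (limma adjusted p = 0.20), and at 0.13 with both channels quantile normalised (limma adjusted p = 0.036).

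Among the 22 claudins tested, 1 was higher and 5 were lower (27.3%, against 40.2% of all genes tested). The median log2 difference over them was 0.059 and the median size 0.098. When turned, 5 were higher and 1 lower (27.3%, against 39% of all genes), with a median of -0.019. Of the 6 called, Cldn3 and Cldn10 were brighter than the median gene, and Cldn8, Cldn11, Cldn15 and Cldn23 were dimmer.

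Cldn8, a sealing claudin known from kidney and colon, had the log2 difference of largest size among all members tested. The arrays gave log2 ratios of 0, 0, 0 and 0.17 on the PBS arrays and -1.29, -1.25, -1.25, -1.29 and -1.22 on the OVA arrays. The separation is complete, although the probe is dim: the mean intensity was 0.119, below that of the median gene, 0.201. OVA minus PBS gave a log2 difference of -1.30 ± 0.04 (SE, limma adjusted p = 2.03e-07), and 1.22 with the OVA ratios turned.

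Cldn10, whose variants form channels for cations or anions, was the claudin that was higher. Ratios on the log2 scale were -0.11, 0.049, 0.20 and -0.025 on the PBS arrays and 0.33, 0.55, 0.36, 0.41 and 0.42 on the OVA arrays. All OVA arrays were above all PBS arrays. This gave a log2 difference of 0.38 ± 0.07 (SE, limma adjusted p = 0.0021), and -0.44 with the OVA ratios turned. This call was lost with quantile normalised ratios (limma adjusted p = 0.14).

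Cldn23, a less studied claudin, had log2 ratios of -0.32, 0.32, 0 and 0 on the PBS arrays and -0.68, -0.49, -0.49, -0.68 and -0.81 on the OVA arrays. The groups did not overlap, and the PBS arrays were the more scattered. On the log2 scale the groups differed by -0.63 ± 0.13 (SE, limma adjusted p = 0.0042), and 0.63 with the OVA ratios turned. A second, dimmer Cldn23 probe gave 0.20 and did not pass (limma adjusted p = 0.19), so the probes of this gene disagree in direction. The first probe is itself among the dimmest 0.25 of genes, and with 0.05 added to both channels its difference was -0.34 (limma adjusted p = 0.0022).

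Cldn15, which makes cation pores in the intestine, had log2 ratios of 0, -0.13, 0.24 and 0 on the PBS arrays and -0.26, -0.24, -0.45, -0.32 and -0.53 on the OVA arrays. The highest OVA array lay just below the lowest PBS array. The difference on the log2 scale was -0.39 ± 0.09 (SE, limma adjusted p = 0.0070), and 0.33 with the OVA ratios turned. Cldn11, the claudin of myelin and of the testis, was lower by about the same amount on each OVA array. Its ratio was exactly 1 on all 4 PBS arrays, and its log2 ratio lay between -0.26 and -0.22 on the OVA arrays. There the channels differed by a single rounding step of 0.01 on a mean intensity of 0.0583, so its log2 difference of -0.25 ± 0.02 (SE, limma adjusted p = 9.88e-06) rests on values rounded to that step. It was 0.25 with the OVA ratios turned, and -0.14 with 0.05 added to both channels (limma adjusted p = 3.33e-05). Cldn3, a sealing claudin of many epithelia, was slightly lower (-0.15 ± 0.03 SE, limma adjusted p = 0.0027), and 0.094 with the OVA ratios turned. Its OVA arrays, between -0.17 and -0.075, lay below its PBS arrays, between -0.014 and 0.047.

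Other claudins familiar in the lung did not pass. Cldn5, the main claudin of endothelium, had log2 ratios between -0.16 and 0.15 on the PBS arrays and between -0.17 and 0.053 on the OVA arrays. Its log2 difference was 0.0042, with a 95% interval of -0.15 to 0.16 (limma adjusted p = 0.99), and 0.021 with the OVA ratios turned. This stands beside a median size of 0.59 for the 20 endothelial markers. Cldn4, a sealing claudin of airway and alveolar epithelium, had a log2 difference of -0.20 ± 0.08 (SE, limma adjusted p = 0.084), and 0.12 turned. Its lowest array, at -0.37, was OVA replicate 2, the array with the low squamous ratios, and without that array the difference was -0.15 (limma adjusted p = 0.13). Cldn7, an epithelial claudin, had a log2 difference of 0.10 ± 0.07 (SE, limma adjusted p = 0.30), and -0.091 turned. Cldn2, a cation pore, had 0.086 ± 0.06 (SE, limma adjusted p = 0.30), and Cldn1, a sealing claudin, 0.059 ± 0.04 (SE, limma adjusted p = 0.31). Turned, these were -0.12 and -0.059. The other claudins, Cldn6, Cldn9, Cldn12, Cldn13, Cldn14, Cldn16, Cldn17, Cldn19, Cldn20, Cldn22 and Cldn25, did not pass either. Their log2 differences lay between -0.16 for Cldn22 and 0.18 for Cldn13, with limma adjusted p between 0.096 and 0.79. With the OVA ratios turned they lay between -0.23 for Cldn19 and 0.16 for Cldn22, and again none passed.

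Cldn18, the claudin characteristic of alveolar epithelium, could not be tested because 4 of the 5 OVA arrays had no value. On the PBS arrays its mean intensity was 38.5 ± 2.75 (SD, n = 4) in channel 1 and 38.0 ± 3.50 in channel 2, toward the top of the deposited scale. On OVA replicate 5, which had a value, it was 41.2 in channel 1 and 32.0 in channel 2, a log2 ratio of -0.37. Blank cells were common at this brightness: the 138 probes blank on at least 1 array had a median intensity of 37 where valued. Of the alveolar type 2 markers, 4 of 13 were likewise not tested. Alveolar type 1 markers had the direction of the junction genes that were lower, with 12 of 13 lower, 1 higher and a median of -0.55. Of all genes tested, 23% were lower and 17.3% higher. Turned, 12 were higher and 1 lower, with a median of 0.58. The summed channel 1 intensity of that list ranged from 122 to 131 on the PBS arrays and from 172 to 186 on the OVA arrays, and no marker was listed at 0. Their part was not tested.

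**Figure D2:**
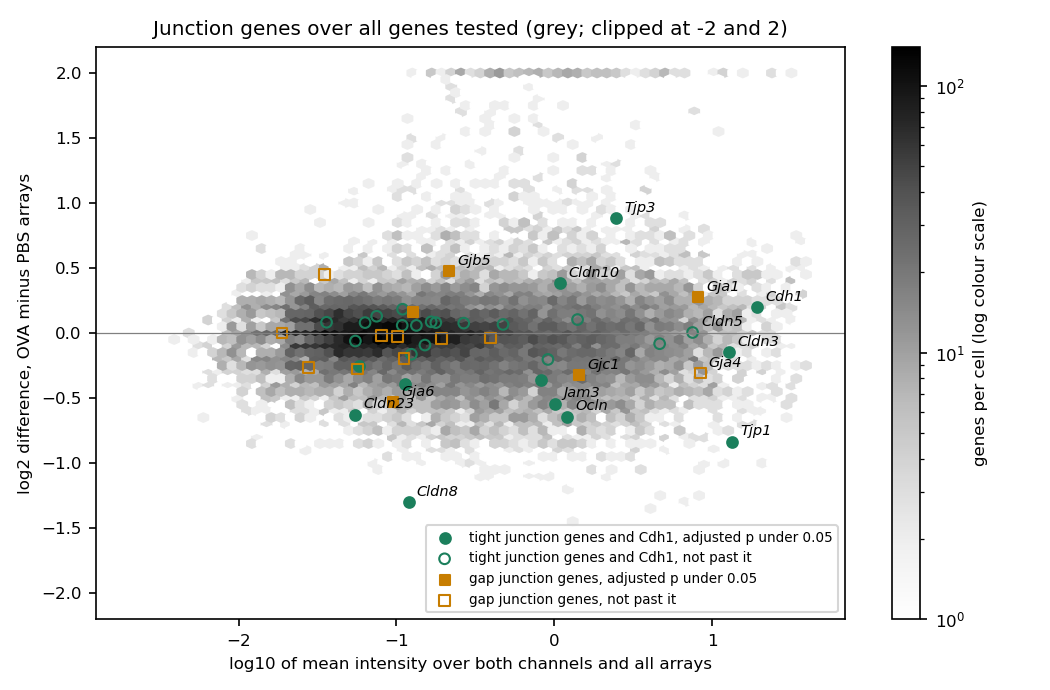
Log2 difference between OVA and PBS arrays against mean intensity (log10 scale, both channels, all arrays) for tight junction genes with Cdh1 (green circles), connexins (orange squares) and all genes tested (grey cells, values beyond 2 drawn at the edge). Filled symbols passed an adjusted p of 0.05. Cldn8, at the bottom, is dim, while Tjp1 at -0.84 and Tjp3 at 0.89 are brighter than the median gene.

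Connexins past the threshold had log2 differences between -0.53 and 0.48. Gjb5, a connexin known from skin and other stratified epithelia, had the largest log2 difference of those that were higher. The arrays gave log2 ratios of 0, 0.11, 0.064 and -0.067 on the PBS arrays and 0.32, 0.45, 0.55, 0.68 and 0.52 on the OVA arrays. No OVA array fell within the range of the PBS arrays. OVA minus PBS gave a log2 difference of 0.48 ± 0.07 (SE, limma adjusted p = 7.88e-04), and -0.53 with the OVA ratios turned. With quantile normalised ratios it was 0.32 (limma adjusted p = 0.044).

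Gja1, the most widely expressed connexin, was called higher, but the call depended on single arrays. Ratios on the log2 scale were -0.11, 0.018, 0.10 and -0.0034 on the PBS arrays and 0.36, 0.013, 0.26, 0.45 and 0.30 on the OVA arrays. OVA replicate 2 lay within the range of the PBS arrays, and the other 4 OVA arrays lay above it. This gave a log2 difference of 0.28 ± 0.09 (SE, limma adjusted p = 0.033), and -0.28 with the OVA ratios turned. This call was lost when any of PBS replicates 1, 2 or 4 or OVA replicates 1, 3, 4 or 5 was left out (limma adjusted p between 0.057 and 0.091). Without OVA replicate 2 the difference was 0.34 (limma adjusted p = 0.0025). A second, dim Gja1 probe gave -0.039 (limma adjusted p = 0.84).

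Gja6, described in rodent testis, was lower. The arrays gave log2 ratios of 0.17, 0, 0 and 0 on the PBS arrays and -0.29, -0.53, -0.64, -0.70 and -0.29 on the OVA arrays. The groups did not overlap. On the log2 scale the groups differed by -0.53 ± 0.10 (SE, limma adjusted p = 0.0026), and 0.45 with the OVA ratios turned, again on a dim probe (mean intensity 0.095). Gjc1, a connexin of smooth muscle and of the cardiac conduction system, ranged from -0.069 to 0.036 on the PBS arrays and from -0.43 to -0.21 on the OVA arrays. Its log2 difference was -0.33 ± 0.05 (SE, limma adjusted p = 0.0012), and 0.35 with the OVA ratios turned. Among listed smooth muscle markers, 4 of 10 were higher and 1 lower (50%, against 40.2% of all genes), with a median of 0.0099. When turned 1 was higher and 4 lower, with a median of -0.040.

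Several connexins did not pass the test. Gja4, the connexin of arterial endothelium, had a log2 difference of -0.31 ± 0.12 (SE, limma adjusted p = 0.068). Its OVA arrays ranged from -0.47 to -0.12 and its PBS arrays from -0.26 to 0.25, and it passed with the OVA ratios turned (0.36, limma adjusted p = 0.040). Gjb6, a connexin of the inner ear and skin, had -0.20 ± 0.08 (SE, limma adjusted p = 0.074) and also passed when turned (0.25, limma adjusted p = 0.031). Gjb1, the main connexin of liver, had 0.45 ± 0.17 (SE, limma adjusted p = 0.067) at a mean intensity of 0.035, with a ratio of exactly 1 on 5 of 9 arrays, and -0.45 when turned. Gjb2, a connexin of the inner ear and many epithelia, had a ratio of exactly 1 on all 9 arrays at a mean intensity of 0.0189, where the rounding of the file leaves no difference to measure. Gja10 and Gjc3 had -0.044 and -0.26 (limma adjusted p = 0.26 and 0.28), and 0.019 and -0.029 when turned.

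Gja3, a connexin of the eye lens, was the member whose log2 ratio varied most among the PBS arrays, on a probe in the dimmest 0.25 of genes (mean intensity 0.0567). Channel 2 was 0.05, 0.09, 0.04 and 0.03 on PBS replicates 1 to 4 and channel 1 was 0.05, 0.05, 0.06 and 0.05, so the spread amounts to a few rounding steps of 0.01. Its log2 ratio there was 0, 0.85, -0.58 and -0.74, and it ranged from -0.58 to -0.22 on the OVA arrays. The median of 14 heart muscle markers on the same PBS arrays was 0.11, 0.62, -0.48 and -0.72, and it ranged from -0.87 to -0.34 on the OVA arrays. Both had their highest PBS ratio on replicate 2 and their lowest on replicate 4, which at this rounding is a description of 4 arrays only. The log2 difference of Gja3 was -0.28 ± 0.30 (SE, limma adjusted p = 0.51), and 0.51 when turned (limma adjusted p = 0.23). The summed intensity of the heart markers in channel 2 ranged from 17.4 to 55.5 on the PBS arrays and from 30.4 to 34.1 on the OVA arrays, no marker was listed at 0, and their part was not tested.

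Quantile normalised ratios ended further calls, those of Cldn3, Cldn15, Cldn23, Gja1 and Gjc1 (limma adjusted p = 0.055, 0.19, 0.23, 0.15 and 0.11). With the mean over a symbol's probes, Cldn23 and Gja1 did not pass (limma adjusted p = 0.092 and 0.30).

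In all, 27 members did not pass in the ratio as deposited, and 25 when turned. The 27 had log2 differences between -0.31 and 0.45 and limma adjusted p between 0.067 and 1. Of these, 19 were dimmer than the median gene, and 13 had a ratio of exactly 1 on at least 5 of the 9 arrays. A filter on low values was not part of the main test, and 9 of the 45 members lay in the dimmest 0.25 of genes.

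The difference between OVA and PBS arrays was found mostly in channel 1. In channel 1 alone 31% of the tight junction genes tested and 46.7% of the connexins were called, where 27.6% of all genes were. Of the 17 members called in the ratio, 13 were also called there, all with the opposite sign. Channel 1 is the divisor of the ratio, so this overlap and the opposite sign are largely fixed in advance. In channel 2 alone none of the 44 members was called by limma, and 0 had an unadjusted p under 0.05, where 2 of 25852 genes (0.00774%) were called and 932 (3.61%) had an unadjusted p under 0.05. On the PBS arrays Tjp1 averaged 11.1 ± 0.0763 (SD, n = 4) in channel 1 and 11.4 ± 1.12 in channel 2. On the OVA arrays it averaged 19.1 ± 1.43 (SD, n = 5) in channel 1 and 10.9 ± 0.535 in channel 2. Thus 3 of these 4 means lie together, and channel 1 of the OVA arrays stands apart.

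Tjp3 had the mirror image of this pattern. It averaged 2.90 ± 0.122 (SD, n = 4) and 2.86 ± 0.0818 in channels 1 and 2 of the PBS arrays, and 1.51 ± 0.155 (SD, n = 5) and 2.75 ± 0.208 on the OVA arrays. For Cldn8 the means were 0.085 and 0.0875 on the PBS arrays, and 0.206 and 0.086 on the OVA arrays. Cdh1 departed from the pattern, with channel 1 means of 18.6 ± 1.29 (PBS) and 18.5 ± 1.69 (OVA), and channel 2 means of 18.5 ± 0.946 (PBS) and 21.1 ± 2.39 (OVA). Cdh1, Cldn11 and Cldn15 were called in the ratio and not in channel 1. A further 3 members, Gjb1, Gja3 and Gja4, were called only in channel 1. Since the PBS ratios lie near 0, turning the OVA ratios exchanges higher and lower for nearly every gene by construction.

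**Figure D3:**
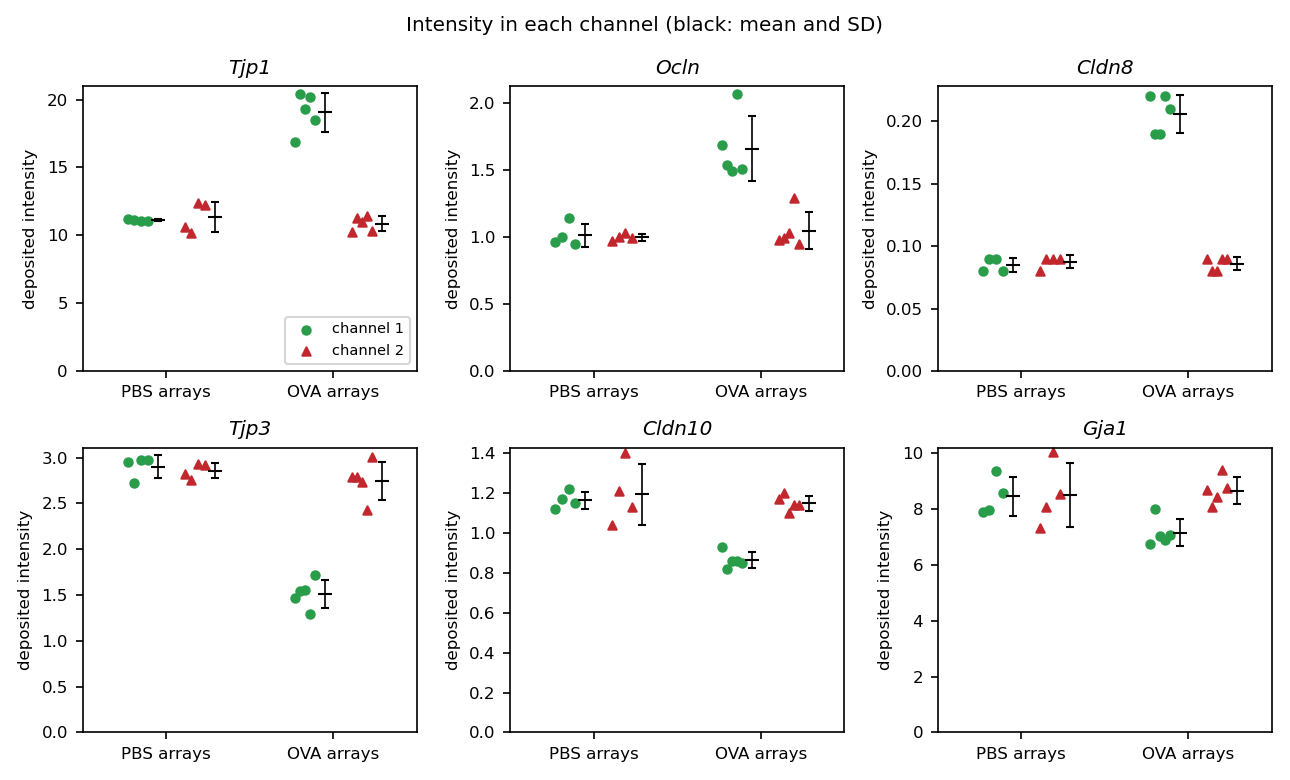
Deposited intensity in channel 1 (green circles) and channel 2 (red triangles) on the PBS and OVA arrays for 6 junction genes, each on its own linear axis from 0, with the mean and SD in black. For Tjp1, Ocln and Cldn8 channel 1 of the OVA arrays lies above the other sets of points, and for Tjp3 and Cldn10 it lies below them. For Gja1 it lies lower, with overlap.

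Other genes of the same junctions were read from lists outside the members. In this and the lists that follow, the shares called stand against 40.2% of all genes and 61% of those brighter than the median gene. When turned, 39% of all genes were called. Of 28 other tight junction genes tested, 5 were higher and 13 lower (64.3%, median log2 difference -0.16). This lies near the 61% for brighter genes, although the list also holds genes dimmer than the median gene, such as Mpdz and Pard3. With the OVA ratios turned 14 of the 28 were higher and 1 lower (median 0.13). The lower ones included Amotl2 and Patj, a motin-family protein and a polarity scaffold that binds zonula occludens proteins, at -0.68 ± 0.04 (SE) and -0.65 ± 0.05, and 0.69 and 0.63 when turned. Magi2, a membrane-associated scaffold, was lower at -0.58 ± 0.06 (SE), and 0.47 when turned. Marveld2, tricellulin, was higher at 0.61 ± 0.20 (SE, limma adjusted p = 0.036), but did not pass when turned (-0.38, limma adjusted p = 0.17).

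Of 25 adherens junction and desmosome genes, 2 were higher and 11 lower (52%, against 40.2% of all genes, median -0.23). When turned 11 were higher and 1 lower (median 0.17). Jup, plakoglobin of both junction types, had -1.18 ± 0.19 (SE), Nectin3, an adhesion molecule, -0.90 ± 0.09, Ppl, the desmosome-linked periplakin, -0.84 ± 0.16, and Vcl, the actin linker vinculin, -0.56 ± 0.03. Turned, these were 1.18, 0.88, 0.81 and 0.58. OVA replicate 2, where squamous markers were low in ratio, stood apart in this list too, with a list median of -0.33 there and between -0.192 and 0 on the other OVA arrays. The desmosomal cadherins Dsg3 and Dsc1 had log2 ratios of -4.73 and -3.17 on that array, the plaque protein Pkp1 -3.87 and the desmosome-associated membrane protein Perp -1.52. On the other 4 OVA arrays Dsg3 and Dsc1 lay between -0.585 and 0, Pkp1 between -0.322 and 0 and Perp between -0.144 and 0.0919. None of these 4 genes, named after their values were seen, passed the test, and Dsg3 and Pkp1 are also in the squamous list. Jup, at -1.02 on replicate 2, lay within the other OVA arrays, between -1.43 and -0.874, and Ppl, at -1.15, lay below them, between -0.965 and -0.401.

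Of 6 other connexin and pannexin genes, 2 were higher and none lower (33.3%, against 40.2% of all genes, median 0.20). When turned 3 were lower (median -0.15). Panx1, a pannexin that forms a membrane channel releasing ATP, was higher at 1.05 ± 0.09 (SE, limma adjusted p = 3.00e-05), and the connexin Gjd3 at 0.44 ± 0.09 (SE, limma adjusted p = 0.0036). Turned, these were -1.16 and -0.30. Among 23 regulators of junction genes, 2 were higher and 8 lower (43.5%, near the 40.2% of all genes, median -0.12). When turned 7 were higher and 2 lower (median 0.13). Snai2 and Zeb1, transcription factors that repress E-cadherin, were at -0.74 ± 0.09 (SE) and -0.57 ± 0.06, and at 0.77 and 0.49 when turned. Snai1, another such repressor, also passed, on a dim probe (mean intensity 0.086). Zeb2 and Twist1, further repressors in the list, did not pass (0.20 and -0.34, limma adjusted p = 0.10 and 0.48). Turned, they were at -0.25 and 0.53, and Zeb2 then passed (limma adjusted p = 0.048). A relation of these genes to Cdh1, at 0.20 and -0.18 when turned, was not tested. Grhl1 and Snai1 were at -0.53 ± 0.15 (SE) and -0.46 ± 0.09, and at 0.52 and 0.28 when turned.

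General epithelial markers did not move as a block. Of 15 tested, which include the members Cldn3 and Cldn7, 3 were higher and 3 lower (40%), with a median of -0.016, and when turned also 3 and 3, with a median of -0.042. Epcam, Krt8 and Krt18 were higher at 0.26 ± 0.05 (SE), 0.37 ± 0.03 and 0.35 ± 0.05, and at -0.31, -0.41 and -0.39 when turned. The summed intensity of this list ranged from 70.4 to 79.3 in channel 1 of the PBS arrays, from 69.6 to 77.6 in channel 2, from 73.5 to 79.7 in channel 1 of the OVA arrays and from 73.3 to 77.4 in channel 2. Thus the summed epithelial level overlapped between all 4 sets. Goblet cell genes were higher in 9 of 10 cases (median 2.96), and club and ciliated cell genes were lower in 7 of 12 and higher in 1 (median -0.27). Of 11 leukocyte genes tested, 6 were higher and 1 lower (median 0.39). Of the 9 alveolar type 2 genes tested, 2 were higher and 5 lower (median -0.36), of 14 heart muscle genes 1 was higher and 3 lower, of 17 squamous genes 1 was lower, and of 9 hepatocyte genes 1 was higher and 1 lower. With the OVA ratios turned, 9 goblet genes were lower (median -2.89), 8 club and ciliated genes were higher and 2 lower (0.29), and 1 leukocyte gene was higher and 6 lower (-0.30). The alveolar type 2 list then had 4 higher and 3 lower (median 0.033), the heart muscle list 7 higher and 0 lower, the squamous list 1 higher, and the hepatocyte list 1 in each direction. No gene of these lists was listed at 0, and their part in the junction results was not tested.

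**Figure D4:**
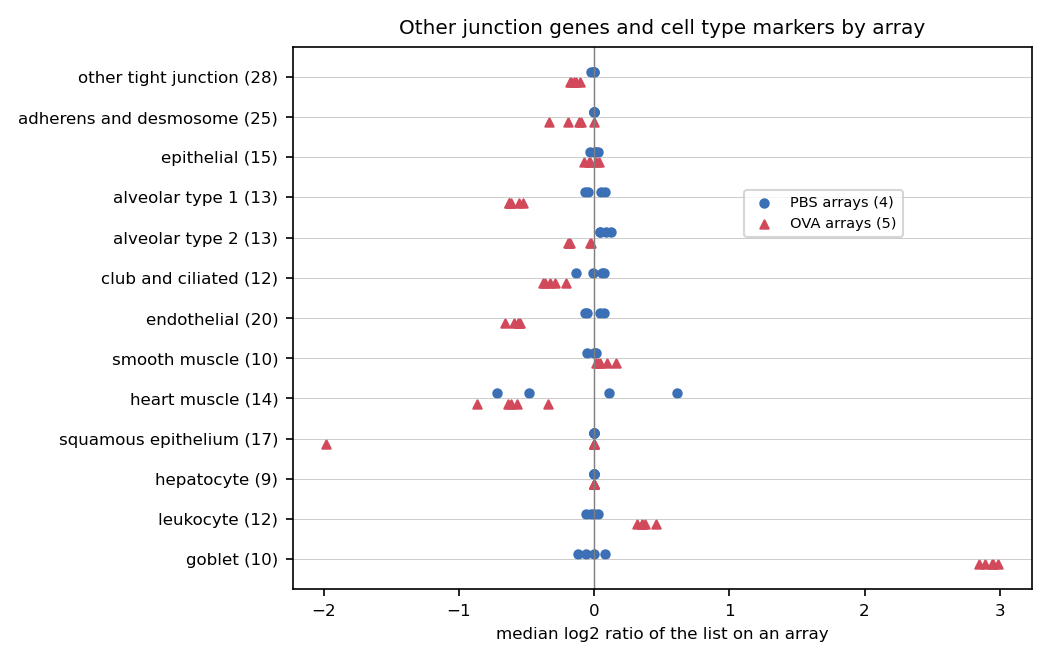
Median log2 ratio (channel 2 over channel 1) of other junction genes and of cell type markers on each of the 4 PBS arrays (blue circles) and 5 OVA arrays (red triangles), with the number of genes on the array in brackets. Endothelial and alveolar type 1 lists lie between -0.66 and -0.52 on the OVA arrays and goblet genes between 2.85 and 2.99. The epithelial list stays near 0 on all arrays, and squamous genes reach -1.98 on OVA replicate 2 alone.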

How the data were processed

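Amplified whole-lung RNA was hybridised to Agilent 2-colour arrays, and the submitters' processing notes name Agilent Feature Extraction 8.5.1.1. The deposited table holds an intensity per channel and a p-value for each of 39464 probes and 9 arrays, per the file headers. The authors had already scaled the intensity values and rounded most of them to 0.01. Their scaling method is not stated in these sources. The scale runs from 0.00055 to 70.2, the median of an array from 0.12 to 0.17 and channel totals from 41722 to 43610, and 27.7% to 48.8% of probes had a ratio of exactly 1. A second deposited table of log10 ratios equals log10 of channel 2 over channel 1 (r = 1, column medians 0). Its direction is known only from this match. The number of arrays limits the precision.

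Arrays were grouped by the labels of channel 2. There were 0 columns of other samples. Symbols were updated through RefSeq synonyms (44 of the 45 member symbols were current or a synonym). Probes with no symbol (9328) or a date for one (31) were left out. Genes with under 2 values in a group (41, among them Cldn18) were not tested. Log2 ratios were compared with limma 3.58.1 in R 4.3.3 (two-sided, no covariates, Benjamini-Hochberg over 25852 genes, adjusted p under 0.05). This called 10400 genes, 4463 higher and 5937 lower. Members and gene lists were chosen with earlier results of these data known. Per-array values were given for up to 8 called members in each direction, and statistics for a fixed list of members. Of each other list up to 4 genes with the largest change past the threshold were eligible to be named. Some genes that these rules name are counted but not reported singly here. The summed marker levels leave out blank cells. The code was tested on simulated data. Alternatives covered the scaling, the filter on dim genes, probe choice, the replicate number as a block, array weights and each array left out. Leaving out OVA replicates 2 and 4 together was added after seeing the data.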

Additional observations from a re-analysis of the deposited data

Results flagged for a closer look

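For 14 of 79 groups of 4 or 5 ratios, 1 array lay far from the others by Dixon's criterion at 95%, where chance gives about 1 in 20. In 12 of these the other arrays of the group had equal, rounded ratios, and 5 were of genes in the dimmest 0.25 of all genes. The 2 with varied ratios were Cldn5 on OVA replicate 1 (log2 ratio -0.17, nearest other array 0.0075) and Cldn4 on PBS replicate 2 (0.18, nearest 0.016). Neither gene passed the test.

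On PBS arrays with otherwise equal ratios, the lone values were -0.052 for Cldn6 and 0.585 for Gjc3 on replicate 3, 0.070 for Cldn2, 0.051 for Gja10 and -0.11 for Gjb6 on replicate 2, 0.17 for Gja6 on replicate 1 and 0.17 for Cldn8 on replicate 4. Gja6 and Cldn8 passed the test, and those lone values lay farther from the OVA arrays than the other PBS arrays did.

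On OVA arrays they were -0.22 for Cldn11 on replicate 1, 0.19 for Cldn9 on replicate 2, 0.263 for Cldn25 and -0.585 for Gjc3 on replicate 3 and 0.415 for Cldn14 on replicate 4. Of these, Cldn11 passed the test.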

How the results depend on the processing

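No change of a called member was reversed under any of the 23 alternatives, and 8 of the 17 (Tjp1, Tjp3, Ocln, Cldn8, Cldn11, Jam3, Gjb5 and Gja6) stayed called wherever they were tested. Over the 17, 365 values kept their side of the threshold and 24 lost it. Quantile normalised ratios cut most: 4548 genes were called (2183 higher, 2365 lower), and tight junction calls fell to 1 higher and 5 lower and connexin calls to 1 lower. Lower connexins numbered 4 without the dimmest 0.25 of genes, 4 with array weights and 5 with the OVA arrays against 0, and higher connexins 1 with the mean over a symbol's probes. The cause was not tested. Leaving out 1 array gave 9176 to 10189 genes, 3 to 4 higher and 9 to 10 lower tight junction genes, and 2 to 3 higher and 2 to 3 lower connexins. Channel 2 alone called 1 to 7 genes with 1 array left out and 0 after quantile normalisation. Cldn7 was called without PBS replicate 3 (0.17, limma adjusted p = 0.033). Samples share replicate numbers in the labels, but same-numbered PBS and OVA arrays correlated at r between -0.154 and -0.00141, and none correlated best with its own number. With the replicate number as a block 7689 genes were called, and 2 higher and 8 lower tight junction genes and 2 higher and 2 lower connexins. Cdh1, Gja1 and Cldn15 did not pass there (limma adjusted p = 0.072, 0.14 and 0.088). Rounding limits the dim probes.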
